A study of Mus musculus with 5 samples.

Results

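The genes described here are 9 of the 20178 transcripts counted in the series, chosen by symbol as the genes of nitric oxide (NO) and superoxide production. They are Nos2, the inducible NO synthase; Arg1, arginase 1; Cybb, Nox4 and Cyba, membrane subunits of NADPH oxidases; Ncf1 and Ncf4, cytosolic subunits; Rac2, a GTPase; and Hvcn1, a proton channel. Of these, Nos2 is the only NO synthase, and Arg1, Rac2 and Hvcn1 are partners or competitors of the enzymes rather than synthase or oxidase subunits. All 9 had a row in each table.

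mRNA was sequenced from 5 cultures of ICR mouse cells at passage 2, with 1 library per condition, so no difference between conditions has a replicate check. The 3 libraries of the ventral midbrain (VM) and 1 of the cortex (Ctx) are labelled astrocyte progenitor cells from postnatal day 5, and the fifth is labelled neural progenitor cells (NPCs) from the cortex of E12 embryos. They are titled mAST-VM (called VM untransduced here), mAST-VM C (VM C), mAST-VM NF (VM NF), mAST-CTX (Ctx astrocyte) and mNPC-CTX (Ctx NPC). The labels name no virus for VM untransduced, Ctx astrocyte and Ctx NPC. The titles of VM C and VM NF read as the control and as Nurr1 plus Foxa2, but the treatment entries give the reverse, with both factors entered for VM C and the mock virus for VM NF. Libraries are named by their titles throughout, and under the treatment entries each difference between VM NF and VM C would be one of control cells against cells with the factors. The lentiviruses carried mouse Nurr1 and rat Foxa2 under the CMV promoter, which is not specific to a cell type, and the control was the empty backbone. The labels do not say whether a culture came from 1 animal or several.

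The libraries held between 20010818 and 22554835 counted reads. The titles were first compared with the reads of the targeted genes. Nr4a2, which encodes Nurr1, had 81 reads in VM untransduced, 53 in VM C, 183 in VM NF, 106 in Ctx astrocyte and 93 in Ctx NPC, while the reads of Foxa2 numbered 68, 15, 216, 1 and 0. VM NF held the most reads of each, although libraries with no virus named held up to 106 reads of Nr4a2. With 1 library per condition, these counts do not settle the conflict between titles and treatment entries. The summed CPM (reads scaled to the library total) of 10 astrocyte markers were 2130, 1917, 1837, 4623 and 11367 in that order, so astrocyte markers were present in all 5 libraries and highest in the library labelled NPC. That library also held 75411 reads of the myelin gene Mbp, against 251 to 3543 in the other 4.

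NO is made from arginine by NO synthases, which need tetrahydrobiopterin as a cofactor, and arginase consumes the same substrate. The phagocyte NADPH oxidase pairs Cybb (gp91phox, also called NOX2), which carries the electrons, with Cyba (p22phox) in the membrane. It makes superoxide once cytosolic subunits, Ncf1 (p47phox) and Ncf4 (p40phox) among them, and a Rac GTPase join from the cytosol, while Hvcn1 lets protons out and so balances the charge. In brain, microglia are the best known source of this oxidase, and Nos2 is known to be induced in activated glia. NOX4 also pairs with Cyba but needs no cytosolic subunits.

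Of the 9 genes, 4 are in the RefSeq promoter table (GRCm38.p6), namely Cybb, Ncf1, Nox4 and Cyba. The stretches of 250 bases before their start sites are shown. Each is written 5′ to 3′ on the strand of the gene, with matches to the motifs searched in capitals. The Cybb stretch (chrX:9469325-9469574, minus strand) and the Nox4 stretch (chr7:87246399-87246648, plus strand) end at start sites that lie inside the annotated gene spans, while those of Ncf1 (chr5:134229626-134229875, minus strand) and Cyba (chr8:122432941-122433190, minus strand) end at or within a few bases of the gene's outer end.
Cybb: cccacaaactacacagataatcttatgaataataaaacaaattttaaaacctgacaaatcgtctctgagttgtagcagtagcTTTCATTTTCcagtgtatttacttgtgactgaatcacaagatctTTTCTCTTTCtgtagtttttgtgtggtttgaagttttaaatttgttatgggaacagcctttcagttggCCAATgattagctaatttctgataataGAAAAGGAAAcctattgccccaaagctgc
Ncf1: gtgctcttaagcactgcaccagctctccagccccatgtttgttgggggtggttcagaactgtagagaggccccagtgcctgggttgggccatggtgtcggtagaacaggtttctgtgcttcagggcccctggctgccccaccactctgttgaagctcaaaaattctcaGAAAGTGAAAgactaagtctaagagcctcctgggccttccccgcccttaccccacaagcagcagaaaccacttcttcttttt
Nox4: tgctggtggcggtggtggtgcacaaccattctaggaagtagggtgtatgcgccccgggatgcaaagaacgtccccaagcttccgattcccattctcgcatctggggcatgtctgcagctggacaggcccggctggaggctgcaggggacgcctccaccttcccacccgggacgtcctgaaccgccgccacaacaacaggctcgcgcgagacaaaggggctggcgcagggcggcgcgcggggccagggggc
Cyba: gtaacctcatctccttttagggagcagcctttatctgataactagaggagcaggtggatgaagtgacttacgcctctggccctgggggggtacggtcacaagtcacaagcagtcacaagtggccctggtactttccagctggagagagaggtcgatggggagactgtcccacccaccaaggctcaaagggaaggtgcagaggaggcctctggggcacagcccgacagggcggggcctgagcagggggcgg
Searched on both strands was the repeat of GAAA, any 2 bases and GAAA that interferon regulatory factors are known to bind. GAGGAA, one sequence that PU.1 is known to bind, and CCAAT were also searched, and other forms of these sites were not. Cybb held the GAAA repeat at 3 places, between -168 and -159, -124 and -115, and -29 and -20 bases from the start, and CCAAT between -56 and -52. Ncf1 held the GAAA repeat once, between -82 and -73. Nox4 and Cyba held none of the 3 motifs, and GAGGAA was in none of the 4 stretches. Among all 32851 stretches of this length in the table, 2.98% held the GAAA repeat, 23.3% held GAGGAA and 33.8% held CCAAT. The matches overlapped no other match, and they describe letters, not bound sites.

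Levels are given as reads and as FPKM (reads over transcript length and library size, as in the tables), and levels of different genes are compared only in FPKM. A log2 ratio compares the CPM of 2 libraries, each count first raised by 0.5 reads, and its exact (Clopper-Pearson) 95% interval covers counting error only, because PCR copies are not independent molecules and cultures were not repeated. Where 5 values follow each other, the libraries are in the order VM untransduced, VM C, VM NF, Ctx astrocyte and Ctx NPC. Folds are ratios of CPM with no reads added, so at low counts they differ from the log2 ratios. A gene was counted as higher or lower at 2-fold by its log2 ratio, with FPKM over 1 in at least 1 of the 2 libraries.

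**Figure D1:**
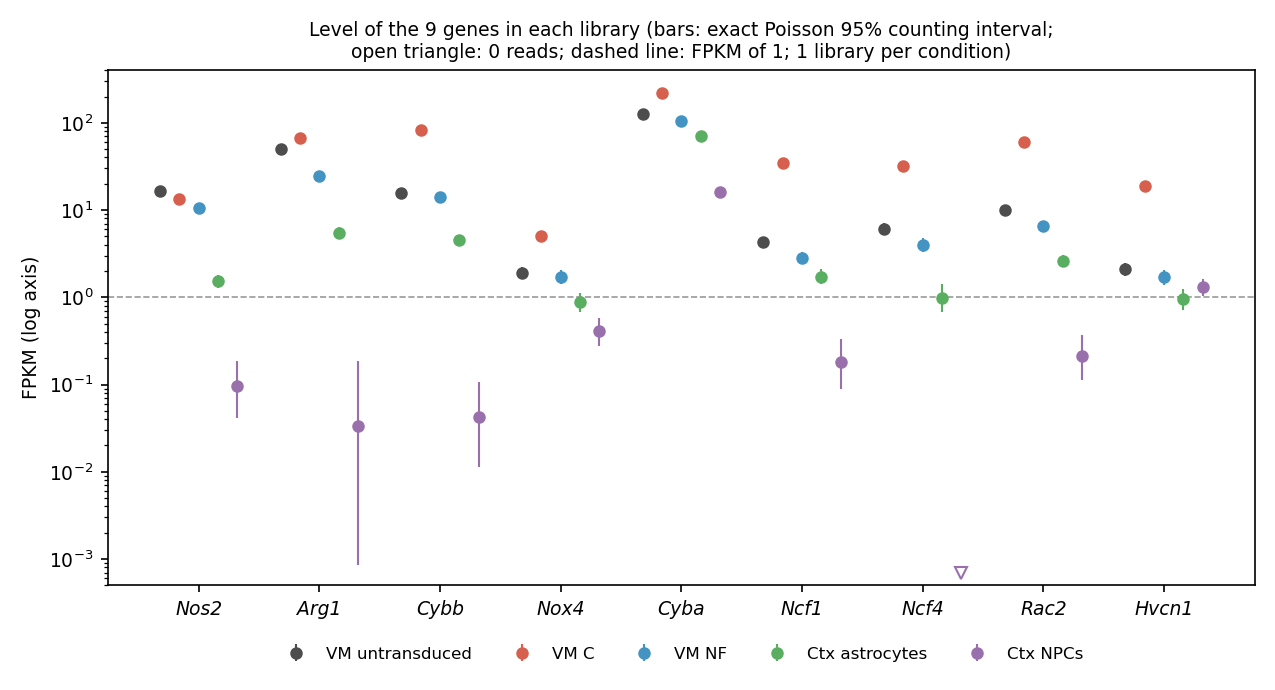
Level of the 9 genes (x axis) in FPKM on a log axis in each of the 5 libraries, as points with exact Poisson 95% counting intervals. VM C is highest for 8 genes, VM untransduced is highest for Nos2, and Ctx NPC is lowest for 8 genes, with Ncf4 at 0 reads there.

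Nos2 and Arg1 differed far more between the cortical and the VM libraries than among the VM libraries. Nos2 (chromosome 11, 78920787 to 78960226, plus strand) had 1466 reads in VM untransduced, 1251 in VM C, 901 in VM NF, 138 in Ctx astrocyte and 8 in Ctx NPC, with FPKM of 16.4, 13.2, 10.6, 1.54 and 0.0954. The 3 VM libraries lay within 1.55-fold of each other, and both cortical libraries were far below them. Each step in this order was larger than counting error. Nos2 was the only one of the 9 genes with its highest value in VM untransduced.

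The log2 ratio of Nos2 was -0.31 (-0.42 to -0.20) in VM C against VM untransduced, -0.64 (-0.76 to -0.51) in VM NF against VM untransduced and -0.32 (-0.45 to -0.20) in VM NF against VM C. None of these reached 2-fold. In Ctx astrocyte against VM untransduced the log2 ratio was -3.41 (-3.68 to -3.17), a 10.7-fold lower level and the lowest ratio of the 9 genes in that comparison. Ctx NPC was a further 16.1-fold below Ctx astrocyte, and its 8 reads correspond to 0.400 CPM with an exact Poisson interval from 0.173 to 0.788.

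Arg1 (chromosome 10, 24915207 to 24927470, minus strand), whose product splits arginine into ornithine and urea, had 1580, 2239, 750, 175 and 1 reads in VM untransduced, VM C, VM NF, Ctx astrocyte and Ctx NPC. Its FPKM was 49.9, 66.8, 24.8, 5.50 and 0.0337, highest in VM C and lowest in Ctx NPC. VM C was above VM untransduced by a log2 ratio of 0.42 (0.33 to 0.51), short of 2-fold. VM NF was 2.69-fold below VM C, with a log2 ratio of -1.43 (-1.55 to -1.31). Against VM untransduced the log2 ratio of VM NF was -1.01 (-1.14 to -0.88), at the edge of 2-fold, and it was -0.95 with TMM scaling. Ctx astrocyte was 9.09-fold below VM untransduced, a log2 ratio of -3.18 (-3.42 to -2.96). The single read in Ctx NPC gave a log2 ratio of -6.80 against Ctx astrocyte, with a wide interval from -12.66 to -4.86.

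Arg1 thus stood above Nos2 per length in the 4 astrocyte libraries. The ratio of their FPKM was 3.04 (2.83 to 3.27) in VM untransduced, 5.05 (4.71 to 5.42) in VM C, 2.35 (2.13 to 2.59) in VM NF and 3.58 (2.85 to 4.51) in Ctx astrocyte. The ratio was highest in VM C and lowest of these in VM NF, and the intervals of those libraries did not meet. In Ctx NPC it was 0.353, but its interval from 0.00795 to 2.63 includes equal levels.

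Of the membrane subunits, Cybb had the highest ratio of VM C to VM untransduced. Cybb (chromosome X, 9435252 to 9487766, minus strand) had 1584 reads in VM untransduced, 8794 in VM C, 1370 in VM NF, 466 in Ctx astrocyte and 4 in Ctx NPC, with FPKM of 15.6, 81.9, 14.1, 4.56 and 0.0420. VM C stood alone, while VM untransduced and VM NF differed by a log2 ratio of only -0.14 (-0.25 to -0.04). VM C was 5.24-fold above VM untransduced, a log2 ratio of 2.39 (2.31 to 2.47), and VM NF was 5.79-fold below VM C, at -2.53 (-2.62 to -2.45). Ctx astrocyte was 3.42-fold below VM untransduced, at -1.77 (-1.93 to -1.62), and Ctx NPC was 109-fold below Ctx astrocyte, at -6.61 (-8.65 to -5.40).

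Nox4 (chromosome 7, 87244430 to 87398710, plus strand), an oxidase that makes hydrogen peroxide without an activating signal, was low in every library. It had 153, 432, 131, 71 and 31 reads in VM untransduced, VM C, VM NF, Ctx astrocyte and Ctx NPC, with FPKM of 1.91, 5.08, 1.71, 0.879 and 0.411. The order was that of Cybb, and VM untransduced and VM NF could not be told apart by counting error, at -0.16 (-0.51 to 0.19). VM C was 2.67-fold above VM untransduced, at 1.41 (1.15 to 1.69), and VM NF was 2.97-fold below VM C, at -1.57 (-1.87 to -1.29). Ctx astrocyte was 2.17-fold below VM untransduced, at -1.11 (-1.54 to -0.70), and between Ctx NPC and Ctx astrocyte Nox4 was under FPKM 1 in both, at -1.08 (-1.75 to -0.47). The ratio of Cybb to Nox4 in FPKM was 8.19 (6.94 to 9.74) in VM untransduced, 16.1 (14.6 to 17.8) in VM C, 8.28 (6.91 to 9.98) in VM NF, 5.19 (4.04 to 6.76) in Ctx astrocyte and 0.102 (0.0262 to 0.289) in Ctx NPC. Cybb was therefore the more abundant of the pair in the 4 astrocyte libraries and Nox4 in Ctx NPC.

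Cyba (chromosome 8, 122424771 to 122432940, minus strand), the partner that both catalytic subunits need, had the highest FPKM of the 9 genes in each of the 5 libraries. It had 2066, 3768, 1613, 1172 and 245 reads in VM untransduced, VM C, VM NF, Ctx astrocyte and Ctx NPC, with FPKM of 127, 218, 104, 71.5 and 16.0. The order of the libraries was again that of Cybb, over a narrower range. VM C was 1.72-fold above VM untransduced, at 0.78 (0.71 to 0.86), which did not reach 2-fold, and VM NF was 2.11-fold below VM C, at -1.07 (-1.16 to -0.99). Ctx astrocyte was 1.77-fold below VM untransduced, at -0.83 (-0.93 to -0.72), and Ctx NPC 4.47-fold below Ctx astrocyte, at -2.16 (-2.36 to -1.96). The FPKM of Cyba was 8.12 times that of Cybb in VM untransduced, 2.67 times in VM C, 7.33 times in VM NF, 15.7 times in Ctx astrocyte and 381 times in Ctx NPC, so the lead of Cyba was smallest in VM C.

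**Figure D2:**
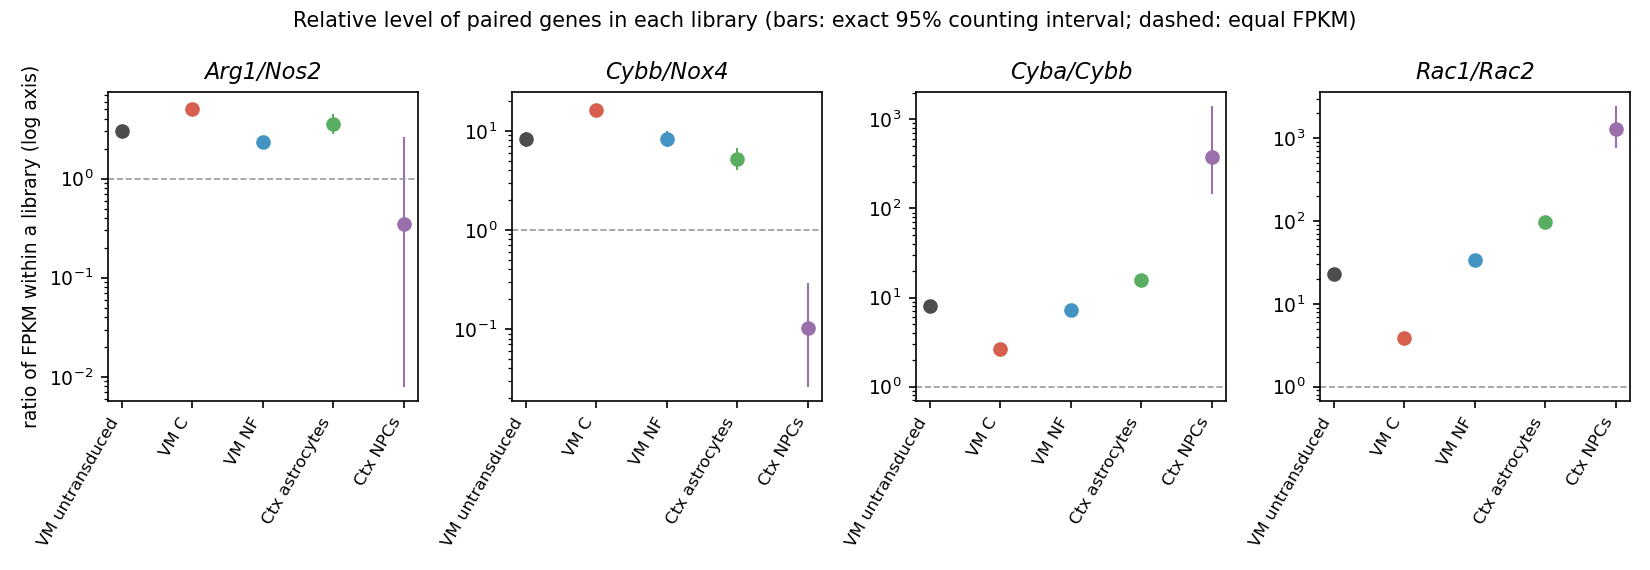
Ratio of FPKM (y axis, log scale) between Arg1 and Nos2, Cybb and Nox4, Cyba and Cybb, and Rac1 and Rac2 in each library (x axis), with exact 95% counting intervals. VM C has the highest Arg1 to Nos2 ratio (5.05) and Cybb to Nox4 ratio (16.1) and the lowest Cyba to Cybb ratio (2.67) and Rac1 to Rac2 ratio (3.86).

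The 3 genes of cytosolic components, together with Hvcn1, differed most among the VM libraries. Ncf1 (chromosome 5, 134220053 to 134229628, minus strand), which brings the cytosolic complex to the membrane, had 249 reads in VM untransduced, 2115 in VM C, 157 in VM NF, 101 in Ctx astrocyte and 10 in Ctx NPC, with FPKM of 4.28, 34.3, 2.82, 1.72 and 0.183. VM C was far above the other 4 libraries, 8.02-fold over VM untransduced at 3.0 (2.81 to 3.20). VM NF was 12.1-fold below VM C at -3.60 (-3.85 to -3.37), the lowest ratio of the 9 genes there, and below VM untransduced at -0.60 (-0.90 to -0.30). Ctx astrocyte was 2.48-fold below VM untransduced at -1.31 (-1.66 to -0.97), and Ctx NPC 9.43-fold below Ctx astrocyte at -3.18 (-4.34 to -2.30).

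Ncf4 (chromosome 15, 78244164 to 78262582, plus strand), the subunit that binds a phagosomal membrane lipid, had 190, 1055, 118, 31 and 0 reads in VM untransduced, VM C, VM NF, Ctx astrocyte and Ctx NPC. Its FPKM was 6.09, 32.0, 3.96, 0.988 and 0. VM C was 5.24-fold above VM untransduced at 2.39 (2.17 to 2.62), and VM NF was 8.06-fold below VM C at -3.01 (-3.30 to -2.74). VM NF was also below VM untransduced, at -0.62 (-0.96 to -0.28), and Ctx astrocyte was 6.17-fold below it, at -2.61 (-3.22 to -2.07). Taking the floor of 3 reads for the count of 0 in Ctx NPC gives 0.150 CPM and a level at least 9.65-fold lower than in Ctx astrocyte, while the exact 95% intervals reach 0.184 CPM and a log2 ratio of -2.89. FPKM was under 1 in both libraries.

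Rac2 (chromosome 15, 78559169 to 78572783, minus strand), the Rac GTPase of blood cells, had 657, 4079, 411, 171 and 13 reads in VM untransduced, VM C, VM NF, Ctx astrocyte and Ctx NPC, with FPKM of 10.1, 59.4, 6.64, 2.62 and 0.213. VM C was 5.86-fold above VM untransduced at 2.55 (2.43 to 2.67), and VM NF 8.95-fold below VM C at -3.16 (-3.31 to -3.02). VM NF was below VM untransduced at -0.61 (-0.79 to -0.43). Ctx astrocyte was 3.87-fold below VM untransduced at -1.95 (-2.20 to -1.71), and Ctx NPC 12.3-fold below Ctx astrocyte at -3.57 (-4.56 to -2.81). Rac1, the widely expressed Rac that can serve the same complex, had between 10286 and 12709 reads in the 5 libraries and was within a log2 ratio of 0.14 of equal in the 5 comparisons. The FPKM of Rac1 was 23.0 times that of Rac2 in VM untransduced, 3.86 times in VM C, 33.5 times in VM NF, 96.9 times in Ctx astrocyte and 1308 times in Ctx NPC.

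Hvcn1 (chromosome 5, 122206805 to 122242297, plus strand), the voltage-gated proton channel, had 125 reads in VM untransduced, 1175 in VM C, 97 in VM NF, 57 in Ctx astrocyte and 73 in Ctx NPC, with FPKM of 2.10, 18.6, 1.70, 0.950 and 1.30. VM C stood alone, and of the other 4 libraries the neighbours in level could not be told apart by counting error. VM C was 8.88-fold above VM untransduced at 3.15 (2.88 to 3.43), the highest ratio of the 9 genes there, and VM NF was 10.9-fold below VM C at -3.44 (-3.76 to -3.15). Between VM NF and VM untransduced the ratio was -0.30 (-0.70 to 0.10). Ctx astrocyte was 2.21-fold below VM untransduced at -1.13 (-1.62 to -0.68). Hvcn1 was the only one of the 9 genes with a higher value in Ctx NPC than in Ctx astrocyte, at 0.45 (-0.06 to 0.98), an interval that includes 0.

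Counts of Hvcn1 and Ncf1 carry a further uncertainty. In the GENCODE vM21 annotation 1574 of the 3563 exon bases of Hvcn1 lie opposite exons of the antisense gene Tctn1, and 408 of the 3663 exon bases of Ncf1 lie opposite Gtf2ird2. The sources used here do not say whether strand was used in counting. Tctn1 had 348, 267, 410, 412 and 169 reads in the 5 libraries. Gtf2ird2 had 180, 218, 166, 199 and 359 reads. Reads in the shared bases were not counted apart, so their part in the counts of Hvcn1 and Ncf1 was not tested.

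**Figure D3:**
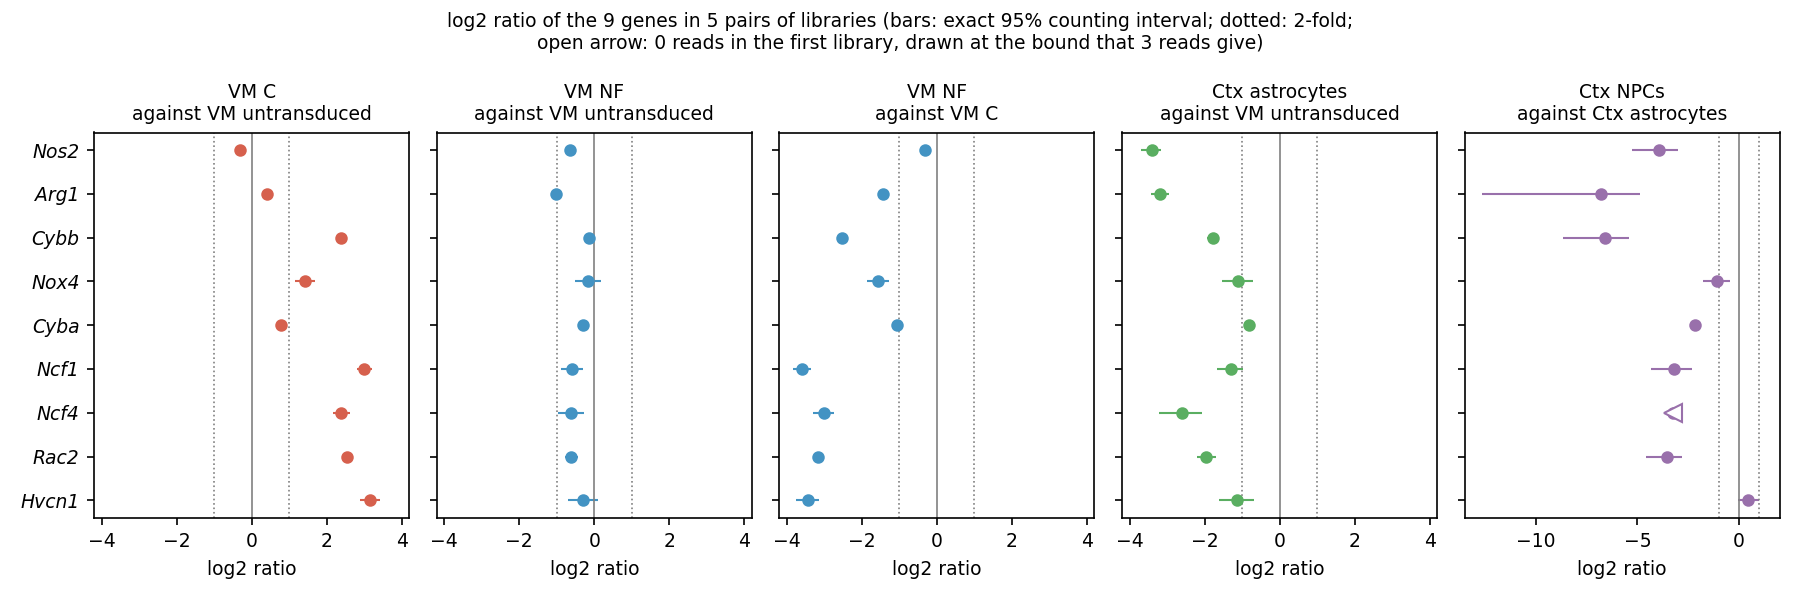
log2 ratios (x axis) of the 9 genes in 5 pairs of libraries, with exact 95% counting intervals and dotted lines at 2-fold. Values in VM C against VM untransduced run from -0.31 (Nos2) to 3.15 (Hvcn1), those in VM NF against VM untransduced from -1.01 to -0.14, and those in VM NF against VM C from -3.60 to -0.32.

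In VM C against VM untransduced, 6 of the 9 genes were at least 2-fold higher and 0 were lower, where 7.30% of the 12703 genes tested were higher and 8.48% were lower. The median log2 ratio of the 9 genes was 2.39, and that of all genes tested was -0.01. In VM NF against VM C, 8 of the 9 genes were lower and 0 were higher, where 9.73% of 12701 genes were lower and 9.53% were higher, with medians of -2.53 for the 9 genes and -0.02 for all. The VM C library enters both comparisons, so the second is not independent of the first. In VM NF against VM untransduced, which does not use VM C, 1 of the 9 genes (Arg1) was lower and 0 were higher. There 0.668% of 12428 genes were lower and 0.322% were higher, 83 and 40 genes, a split that became 68 and 55 genes with TMM scaling. All 9 log2 ratios were below 0 in that comparison, with a median of -0.60 against -0.05 for all genes, and the intervals of Nox4 and Hvcn1 included 0.

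Ctx astrocyte held less of all 9 genes than VM untransduced. At 2-fold 8 of the 9 were lower and 0 were higher, with Cyba the exception, where 9.89% of 12553 genes were lower and 4.49% were higher. The median log2 ratio was -1.77 for the 9 genes and -0.05 for all genes tested. In Ctx NPC against Ctx astrocyte, 7 of the 9 genes had FPKM over 1 in at least 1 of the libraries, Nox4 and Ncf4 not among them, and 6 of the 7 were lower and 0 were higher. Of 12623 genes 17.9% were lower and 20.1% were higher, 2259 and 2538 genes, and with TMM scaling 2594 and 2034 genes. The median was -3.57 for the 7 genes and 0.19 for all, and TMM scaling shifted the ratios in that comparison by -0.18.

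Of 11 other genes of NOX and DUOX oxidases and their subunits reported here, 9 had rows (Duox2 and Duoxa1 were not analysed) and 4 had FPKM over 1. Of these 4, 1 was lower and 0 were higher in VM C against VM untransduced, with a median of -0.33, and 1 was higher and 0 were lower in VM NF against VM C, with a median of 0.22. Both counts came from Noxo1, an organizer subunit of the NOX1 oxidase, with 238, 72, 154, 195 and 57 reads and a log2 ratio of -1.80 in VM C against VM untransduced and 1.24 in VM NF against VM C. Cybc1, which helps the Cybb and Cyba pair to mature, stayed between 695 and 1064 reads and below 2-fold in the 5 comparisons. Rac3 had between 472 and 683 reads and was also below 2-fold in each.

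Of 11 genes of other NO synthases and arginine handling, 9 had FPKM over 1 in VM C against VM untransduced, and 1 was higher and 0 were lower, with a median of 0.05. That gene was Arg2, the mitochondrial arginase, with 182, 779, 172, 37 and 17 reads in VM untransduced, VM C, VM NF, Ctx astrocyte and Ctx NPC. Its log2 ratio was 2.01 in VM C against VM untransduced, above the 0.42 of Arg1, and -2.03 in VM NF against VM C. The other 2 NO synthases, named after their values were seen, were the genes of this list under FPKM 1, with 1 to 4 reads of Nos1, the neuronal synthase, and 14 to 30 reads of Nos3, the endothelial synthase. In FPKM Nos3 lay between 0.169 and 0.339 over the 5 libraries, so Nos2 was the most abundant NO synthase in the 4 astrocyte libraries. In Ctx NPC Nos2, at 0.0954, was below the 0.169 of Nos3, with counting intervals that met.

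The 5 genes of tetrahydrobiopterin supply reported here showed 0 higher and 0 lower in VM C against VM untransduced, with a median of -0.12, and likewise 0 and 0 in VM NF against VM C, with a median of -0.17. In Ctx astrocyte against VM untransduced 2 of the 5 were lower, Gch1, the first enzyme of the pathway, at -1.08 and its regulator Gchfr at -2.31, and 0 were higher, with a median of 0.04. The other 3 had ratios above 0. Gch1 had 516 reads in VM untransduced, 494 in VM C, 507 in VM NF, 246 in Ctx astrocyte and 89 in Ctx NPC, so like Nos2 it stayed below 2-fold among the VM libraries and was lower in the cortical ones.

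Among 5 genes of the NO receptor, guanylyl cyclase, and its kinases, 1 of 4 with FPKM over 1 was higher in VM C against VM untransduced and 0 were lower. This was Prkg2, a kinase driven by cyclic GMP, at 1.92, with 86, 347, 62, 14 and 112 reads in the 5 libraries. Lower in VM NF against VM C were 2 of 4, Prkg2 at -2.33 and the cyclase subunit Gucy1a1 at -1.30, with 0 higher. Among 6 genes that remove superoxide and peroxide, Sod3, the secreted superoxide dismutase, was the only one past 2-fold in VM C against VM untransduced. Sod3 had 6626, 1975, 6014, 8520 and 94 reads in the 5 libraries. Its log2 ratios were opposite in sign to those of Cybb in VM C against VM untransduced (-1.83) and VM NF against VM C (1.76). Prdx1, a peroxiredoxin, was lower in VM NF against VM C at -1.27, with 11531, 23500, 8766, 9750 and 11288 reads.

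Of 8 genes reported here that are known to take part in Nos2 induction, 1 was higher and 1 was lower in VM C against VM untransduced, with a median of -0.11. Tlr4, the lipopolysaccharide receptor, was higher at 2.10 with 219, 993, 196, 241 and 15 reads, and Irf1, an interferon-induced transcription factor, was lower at -1.03 with 1982, 1029, 2056, 1692 and 415 reads. The values in VM NF against VM C were -2.19 for Tlr4 and 1.15 for Irf1. The interferon gamma receptor genes, Jak2, Myd88, Nfkb1 and Rela stayed below 2-fold in both. In Ctx astrocyte against VM untransduced, where Nos2 was 10.7-fold lower, 0 of the 8 were past 2-fold in either direction, with a median of -0.27.

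Of 5 transcription factors of myeloid cells, 2 were higher in VM C against VM untransduced and 0 were lower. Spi1, which encodes PU.1, had 226, 1711, 149, 37 and 4 reads in the 5 libraries and a log2 ratio of 2.84, and Irf8 had 355, 1960, 326, 126 and 53 reads and a log2 ratio of 2.38. Lower in VM NF against VM C were 3 of the 5, Spi1 at -3.37, Irf8 at -2.44 and Cebpa at -1.04. In Ctx astrocyte against VM untransduced 3 of the 5 were lower and 0 were higher. Of 6 other genes of alternative macrophage activation 3 had FPKM over 1, and Mrc1, the mannose receptor, was the 1 past 2-fold in VM C against VM untransduced, at 1.63 with 299, 982, 202, 66 and 0 reads. In VM NF against VM C Mrc1 at -2.13 and Stat6 at -1.25 were lower, while Retnla, often read beside Arg1, had 0 reads in the 5 libraries. In VM NF against VM untransduced no gene of these 8 lists was past 2-fold.

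**Figure D4:**
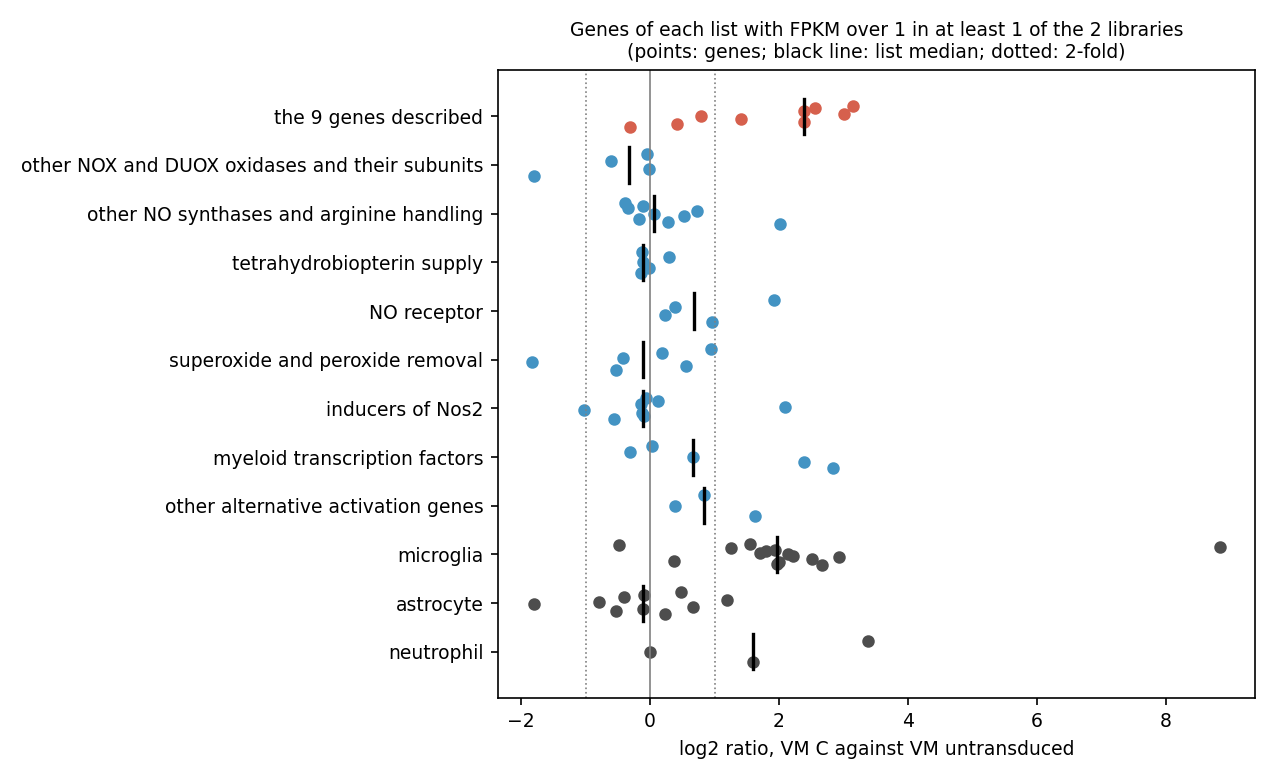
log2 ratio in VM C against VM untransduced (x axis) of the genes with FPKM over 1 in each list drawn (rows). Points are genes and the black line is the list median. The 9 genes have a median of 2.39, the microglial markers 1.97 and the neutrophil markers 1.59. The medians of other oxidases (-0.33), tetrahydrobiopterin supply (-0.12), Nos2 inducers (-0.11), superoxide and peroxide removal (-0.11) and astrocyte markers (-0.11) lie below 0. Oligodendrocyte lineage markers, which are not drawn, have a median of 1.98.

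Markers of microglia moved with the oxidase genes. Of 19 listed, 18 had rows (Cd68 was not analysed), and their summed level was 442 CPM in VM untransduced, 1424 in VM C, 362 in VM NF, 258 in Ctx astrocyte and 165 in Ctx NPC. In VM C against VM untransduced 13 of 15 with FPKM over 1 were higher and 0 were lower, with a median of 1.97, and in VM NF against VM C 13 of 15 were lower, with a median of -2.66. In VM NF against VM untransduced 1 of 13 was lower and 12 had ratios below 0, with a median of -0.53. In Ctx astrocyte against VM untransduced 11 of 13 were lower, with a median of -1.53, and in Ctx NPC against Ctx astrocyte 10 of 11, with a median of -4.96.

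Csf1r, the growth factor receptor of these cells, had 527, 3199, 326, 170 and 7 reads in the 5 libraries, and Tyrobp, a signalling adaptor, 690, 3203, 456, 177 and 2. Both followed the order of Cybb. Fcrls did not, with 1, 734, 2, 5 and 3 reads. Its log2 ratios were the largest in size of the list, 8.85 in VM C against VM untransduced and -8.06 in VM NF against VM C. Siglech was at 0 in all 5 libraries, Gpr34 at 0 in VM NF and Ctx NPC, and Trem2 at 0 in Ctx NPC, and P2ry12 had 5 to 23 reads. Sall1 ran the other way, with 1517, 1151, 1743, 2355 and 2746 reads, and made up most of the summed level in Ctx NPC. The part of microglial RNA in the differences of the 9 genes was not tested. In bulk RNA a smaller number of cells of one type and less RNA in each of them cannot be told apart. Between VM C and VM untransduced, Nos2 was 1.24-fold lower in VM C and the sum of these markers was 3.22-fold higher. In VM NF against either of those libraries both Nos2 and the median of the markers were lower.

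Other cell types had smaller sums or other orders. Neutrophils also use this oxidase, and 9 of their 10 markers had rows (Ly6g was not analysed), summing to 42.6, 63.1, 32.8, 4.85 and 0.150 CPM in the 5 libraries. Mpo, Elane and S100a9 had 0 to 2 reads in each library, and the genes Mmp8 and S100a8, named after their values were seen, held most of the sum in the 4 astrocyte libraries. In VM C against VM untransduced 2 of the 3 neutrophil markers with FPKM over 1 were higher, S100a8 at 1.59 and Csf3r, a growth factor receptor also named after its values were seen, at 3.38 with 18, 204, 12, 5 and 2 reads. The list median was 1.59 there and -3.24 in VM NF against VM C, where 2 of 3 were lower, and the part of neutrophil RNA in the differences of the 9 genes was not tested. The 8 lymphocyte markers summed to 9, 42, 9, 5 and 7 reads. The 7 endothelial markers summed to 33.7, 61.4, 32.9, 16.1 and 10.3 CPM, with Cldn5 at 0 or 1 read. Of the 3 endothelial markers with FPKM over 1, named after their values were seen, Cdh5 was higher in VM C against VM untransduced at 1.33, Kdr was lower at -1.24 and Emcn was at 0.43. The 9 fibroblast and mural markers summed to 3890, 2562, 3646, 1681 and 563 CPM. In VM C against VM untransduced 4 of these 9 markers were lower at 2-fold and 0 were higher, with a median of -0.26. In Ctx astrocyte against VM untransduced 5 of them were lower and 0 were higher, with a median of -1.51. Their part in the differences of Nos2 and Arg1 was not tested. The 10 astrocyte markers had a median log2 ratio of -0.11 in VM C against VM untransduced. There Aldh1l1 was lower at -1.81 and S100b was higher at 1.20, the only ones past 2-fold. In VM NF against VM C 2 were lower and 1 was higher, with a median of -0.22. Their median was 1.20 in Ctx astrocyte against VM untransduced, where the 9 genes were lower. The 7 neuronal markers summed to 691, 545, 592, 418 and 1033 CPM, and the 7 neural progenitor markers to 1278, 2185, 1238, 1232 and 1494 CPM. Of 4 neuronal markers with FPKM over 1, 2 were higher and 0 lower in VM C against VM untransduced, with a median of 1.08. Of 6 neural progenitor markers with FPKM over 1, 0 were past 2-fold there and 4 had ratios below 0, with a median of -0.42. Nes alone had 1951 CPM in VM C and 979 CPM in VM untransduced.

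Oligodendrocyte lineage markers were also higher in VM C, 7 of 8 at 2-fold with a median of 1.98, and 7 of 8 were lower in VM NF against VM C with a median of -2.91. Their sums were 257, 698, 245, 260 and 6823 CPM, so in Ctx NPC, the library with the lowest values for 8 of the 9 genes, they were highest. Their part in the differences of the 9 genes was not tested.

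Genes with the most similar profiles over the 5 libraries were taken for 4 of the 9 genes from 13298 genes with FPKM over 1 in at least 1 library, by the root mean square (RMS) difference of centred log2 CPM. For Nos2 they were Slco2a1 (RMS difference 0.259), a prostaglandin transporter, Osr1 (0.293), a transcription factor, and Cxcl3 (0.306), a chemokine. Slco2a1 had 1624, 1880, 1526, 146 and 10 reads in the 5 libraries, close together in the VM libraries and low in the cortex as Nos2 was. For Arg1 they were Zbp1 (0.282), Sp100 (0.289) and Pf4 (0.321). For Cybb the closest named genes were Klhl6 (0.170) and the chemokine Ccl3 (0.226), which had 1972, 8745, 1409, 355 and 4 reads, and a transcript with no matched symbol lay between them. For Nox4 they were Emp1 (0.0855), a membrane protein, Acsl4 (0.116), a fatty acid ligase, and Prkch (0.127), a protein kinase. With 5 libraries from 5 conditions these likenesses are descriptions only.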

How the data were processed

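mRNA-seq tables of 5 libraries were used, 1 per condition. The authors trimmed reads with quality under 20, aligned with STAR to GRCm38/mm10 and counted on RefSeq exons (Release 105) with HTSeq-count, while the submitters' processing notes name mm9. The deposited read counts are raw, and the deposited FPKM, recomputed from counts, lengths and totals, differed by at most 4.09e-05 (relative). A row of totals was left out of each table. Of 20178 transcripts 19997 were paired with a symbol through RefSeq (GRCm38.p6), which also gave the positions; the files hold no coordinates.

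Libraries were grouped by title. The genes described were all those of the given symbol list. The gene lists and motifs, and the members themselves, were chosen with earlier results of these data known. From each list other than those of cell type markers, genes past 2-fold in VM C against VM untransduced or VM NF against VM C were named (up to 4). Subunits of the same enzymes were named too. Of the cell type markers only some genes past 2-fold were named, so a marker left unnamed may also be past 2-fold. Some genes of the lists are not reported here, and list counts and medians leave them out. No test of conditions was possible. Log2 ratios used library totals with 0.5 reads added, Clopper-Pearson 95% intervals of the ratio and exact Poisson intervals of a level. The floor was 3 reads, 0.133 to 0.150 CPM. Intervals and floors cover counting error only. Alternatives were edgeR 4.0.16 TMM and upper-quartile scaling, DESeq2 1.42.0 size factors, 5 reads added, other filters and 1.5-fold or 2.6-fold limits. The calculation was tested on simulated data. Python 3.11.15, numpy 2.4.6, pandas 2.3.3, scipy 1.17.1 and R 4.3.3 were used.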

Additional observations from a re-analysis of the deposited data

How the results depend on the processing

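Of 180 log2 ratios of single genes recomputed under the other scalings and with 5 reads added, 179 stayed within their counting intervals and 0 changed sign. The exception was Ncf4 in Ctx NPC against Ctx astrocyte, which rests on 0 reads and became -2.83 with 5 reads added. No paired analysis was possible because there was 1 library per condition, and for the same reason no replicate could be left out. For the 9 genes, the count lower in VM NF against VM untransduced, 1 (Arg1), was 0 with TMM, DESeq2 and upper-quartile scaling and at 2.6-fold, and 5 at 1.5-fold. The count lower in Ctx astrocyte against VM untransduced, 8, was 5 with FPKM over 1 required in both libraries and 5 at 2.6-fold. The count lower in Ctx NPC against Ctx astrocyte, 6, was 1 with FPKM over 1 required in both. The counts of 6 higher in VM C and 8 lower in VM NF against VM C moved by less than 1.5 times under all of these alternatives.

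Counts over all genes moved more. With no filter on FPKM, genes lower and higher were 2288 and 2042 in VM C against VM untransduced, 1020 and 759 in VM NF against VM untransduced, 2453 and 2388 in VM NF against VM C, and 2759 and 1319 in Ctx astrocyte against VM untransduced, and 3961 were lower in Ctx NPC against Ctx astrocyte. With FPKM over 1 required in both libraries, 687 were lower in VM C, 39 lower and 23 higher in VM NF against VM untransduced, 755 lower in Ctx astrocyte and 1460 lower in Ctx NPC. At 2.6-fold they were 648 and 598, 24 and 11, 789 and 682 in the first 3 comparisons, with 279 higher in Ctx astrocyte and 1618 higher in Ctx NPC. At 1.5-fold they were 2207 and 1859, 514 and 319, 2429 and 2389, and 2138 and 1309 in the first 4, with 4275 higher in Ctx NPC. These shifts follow from how many genes each limit admits. Depth limits Nos2, Arg1, Cybb, Ncf1, Ncf4 and Rac2 in Ctx NPC, where each had 0 to 13 reads.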
